A study of Mus musculus with 18 samples.

Results

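The mouse microRNA miR-155 was followed through 3 of the 2134 features listed for each sample, which were found by their names. These were the precursor hairpin (mmu-mir-155), the strand cut from its 5′ side (mmu-miR-155-5p) and the strand cut from its 3′ side (mmu-miR-155-3p), written below without the species prefix. The 2134 features comprised 855 hairpins and 1279 mature miRNAs, and all 3 miR-155 features had enough reads to be among the 1363 that were tested. BV-2 is an immortalized mouse microglial cell line, microglia being the resident macrophages of the brain. Its small RNA was sequenced in 18 samples, 3 in each of 6 treatments, to ask how miRNAs respond to lipopolysaccharide (LPS), a bacterial cell wall component sensed by Toll-like receptor 4, and to the plant cannabinoids cannabidiol (CBD) and tetrahydrocannabinol (THC). Control cells received neither, LPS cells received 100 ng/ml LPS for 4 h, and CBD and THC cells received 10 μM of the cannabinoid for 6 h. CBD+LPS and THC+LPS cells received the cannabinoid 2 h before the same LPS exposure. All groups are the same cell line in culture, which limits them as a model of microglia in the brain, and nothing in the labels says whether the samples of a group came from separate cultures, so p-values measure the spread between these samples, which may be technical.

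A miRNA hairpin lies in a longer primary transcript, is cut out of it in the nucleus by Drosha and is trimmed in the cytoplasm by Dicer into a duplex of its arms. One strand, the guide, is loaded into an Argonaute protein and pairs with target mRNAs mainly through its seed, while the other, the passenger strand, is usually discarded. miR-155, made from the noncoding transcript Mir155hg, is a classical target of NF-κB and AP-1 signaling in macrophages and microglia. Its 5p strand is the usual guide and is known for lowering Socs1 and Inpp5d, negative regulators of cytokine and phosphoinositide signaling.

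The mature sequences are shown because the arm compared with the other is the main subject below, with the seed (bases 2 to 8) in capitals, and the hairpin is shown with both arms in capitals so that their place in it can be seen.

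miR-155-5p: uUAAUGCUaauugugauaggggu

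miR-155-3p: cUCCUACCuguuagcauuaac

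mir-155 hairpin: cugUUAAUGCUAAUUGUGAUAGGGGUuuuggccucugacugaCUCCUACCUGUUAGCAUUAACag

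These sequences are those of RefSeq on GRCm38.p6, where the hairpin lies on the plus strand at chr16:84714140-84714204. The 5p strand lies at chr16:84714143-84714165 and the 3p strand at chr16:84714182-84714202. In GENCODE M21 on the same build the 65 bases of the hairpin lie inside exon 2 of both annotated transcripts of Mir155hg, a long noncoding RNA gene at chr16:84703167-84715245. The minimum free energy fold of the hairpin had 25 base pairs at -27.2 kcal/mol, with 19 of the pairs joining the arms and 16 bases between them. The seeds of the arms differ, and no other of 1679 mature mouse miRNAs in the same table carries either of them. Each mature sequence occurred in 1 of 1005 hairpins, so that within this table no paralog shares the reads of either arm.

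The deposited values are scaled CPM, reads of a feature relative to the library's scaled total, and whole reads could be recovered from them. Reads summed to between 442718 and 1057147 per sample, and 3 reads, taken as the lowest level the depth can show, corresponded to between 2.98 and 6.38 CPM. That floor and the intervals for shares below cover counting error alone, since PCR copies of a molecule are counted more than once. The blood and macrophage lineage markers miR-142-5p (7254 to 12346 CPM), miR-142-3p (1486 to 3318 CPM) and miR-223-3p (48.5 to 178 CPM) were present in every sample. Of markers of other cells, the neuronal miR-124-3p had 4 reads and the hepatocyte miR-122-5p 5 reads in all 18 samples together, the oligodendrocyte miR-219-5p had 50 and the neural miR-9-5p 118. Sample numbers in the labels run from 22 to 39, and numbers 22 to 27 hold 1 sample of each group. Reads on the hairpins mir-6243, mir-6240 and mir-6236, which stood out by their share of the reads, took between 1.20% and 4.55% of reads in 14 samples, but 0.204% in control 22, 0.160% and 0.151% in CBD 30 and CBD 36 and 0.361% in THC+LPS 27. Results that rest on these samples are also given without single samples or within samples 28 to 39, which hold 2 samples of each group, CBD 30 and CBD 36 among them.

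miR-155-5p, the guide strand, rose about 10-fold with LPS, miR-155-3p rose about 29-fold and the hairpin about 7-fold. The level of miR-155-5p was 1248, 598 and 919 CPM in control samples 22, 28 and 34. In the LPS samples 23, 29 and 35 it was 8157, 9334 and 9273 CPM. No sample with LPS, with or without a cannabinoid, came near any sample without it.

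The 3p strand was a minor product in resting cells, at 19.1, 8.55 and 19.8 CPM in the control samples, which rested on 9, 5 and 17 reads. With LPS it reached 539, 432 and 431 CPM, on 412, 326 and 418 reads. The hairpin was at 111, 51.3 and 105 CPM in control and 602, 545 and 592 CPM with LPS. Control 28 was the lowest of the 3 control samples for all 3 features, and control was the group with the widest relative spread of miR-155-5p (922 ± 325 CPM, SD, n = 3) against 8921 ± 662 CPM with LPS.

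**Figure D1:**
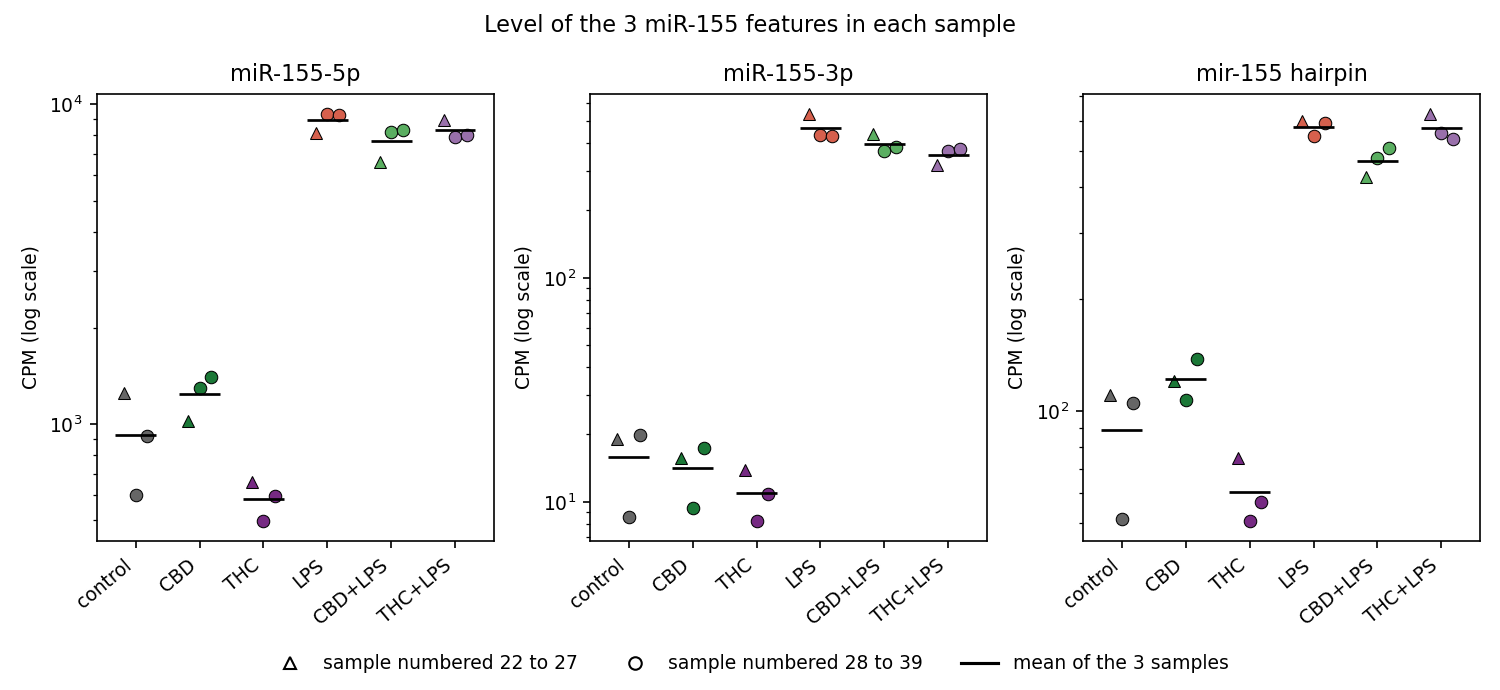
Level of miR-155-5p, miR-155-3p and the mir-155 hairpin in CPM on log axes, 1 panel per feature and 1 point per sample, with the mean of the 3 samples of each group as a bar, triangles for samples numbered 22 to 27 and circles for samples 28 to 39. In each panel the 9 samples with LPS lie above the 9 without, from 6580.4 CPM upward against at most 1407 CPM for miR-155-5p and from 318 CPM upward against at most 19.8 CPM for miR-155-3p.

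In limma's test across all 1363 features on log2(CPM + 1), the difference between LPS and control was 3.33 for miR-155-5p (SE 0.22, adjusted p = 1.66e-08), or 10.1-fold with a 95% interval of 7.31 to 13.9. It was 4.87 for miR-155-3p (SE 0.31, adjusted p = 1.66e-08), or 29.3-fold with an interval of 18.6 to 46.2, and 2.77 for the hairpin (SE 0.25, adjusted p = 1.94e-06), or 6.81-fold with an interval of 4.69 to 9.89. These 3 features had the smallest p of all 1363, the 3p strand first, then the 5p strand and then the hairpin. They were among 14 features called at an adjusted p of at most 0.1, that is 1.03% of those tested, of which 13 were higher with LPS (0.954%). Within samples 28 to 39 the differences were 3.65, 4.94 and 2.94 in the same order, and 47 of the 1363 features were called there (3.45%). These are bulk RNA samples, in which fewer cells with a miRNA and less of it per cell cannot be told apart.

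Across all 6 groups, the F test in limma over the 5 differences from control gave an adjusted p of 2.43e-10 for each arm and 4.95e-08 for the hairpin, with 24 of the 1363 features (1.76%) called. By mean level of miR-155-5p the groups ranked THC (585 ± 80.6 CPM), control (922 ± 325), CBD (1241 ± 196), CBD+LPS (7698 ± 971), THC+LPS (8282 ± 567) and LPS (8921 ± 662; SD, n = 3 each). The only neighbours in this order that passed the test were CBD and CBD+LPS. The hairpin had the same order in resting cells (60.7 ± 12.4, 88.9 ± 32.7 and 122 ± 15.3 CPM), and with LPS it ranked CBD+LPS (469 ± 41.7), THC+LPS (573 ± 47.5) and LPS (579.7 ± 30.04). For the 3p strand the resting means were 11.0 ± 2.83 CPM in THC, 14.2 ± 4.23 in CBD and 15.8 ± 6.32 in control, and the LPS means were 353 ± 31.02 in THC+LPS, 397 ± 35.1 in CBD+LPS and 467 ± 62.2 in LPS. The place of miR-155-5p among the 1279 mature miRNAs moved from between 68th and 102nd in resting samples to between 20th and 23rd with LPS. The 3 features together moved from between 0.0551% and 0.150% of all reads to between 0.796% and 1.03%.

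The response to LPS was also present in cells that had received a cannabinoid. With CBD, miR-155-5p was at 1024, 1292 and 1407 CPM in samples 24, 30 and 36, and with CBD+LPS it was at 6580.4, 8182 and 8333 CPM in samples 26, 32 and 38. With THC it was at 659, 499 and 596 CPM in samples 25, 31 and 37, and with THC+LPS at 8934, 7901 and 8013 CPM in samples 27, 33 and 39. Every sample with LPS lay above every sample without it for either compound.

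On the log2 scale, CBD+LPS exceeded CBD by 2.64 for miR-155-5p (limma adjusted p = 6.58e-07), by 4.75 for miR-155-3p (2.87e-08) and by 1.94 for the hairpin (0.000308), with 1.1% of features called. THC+LPS exceeded THC by 3.83 (3.57e-09), 4.91 (8.51e-09) and 3.23 (1.79e-07) in the same order, with 0.807% of features called. Pooled over control, CBD and THC, the effect of LPS was 3.27 for the 5p strand (SE 0.13), 4.84 for the 3p strand (SE 0.18) and 2.65 for the hairpin (SE 0.15), and 1.61% of features were called. All 3 features were also among the 13 of 1363 (0.954%) whose 9 samples with LPS all lay above the 9 without.

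**Figure D2:**
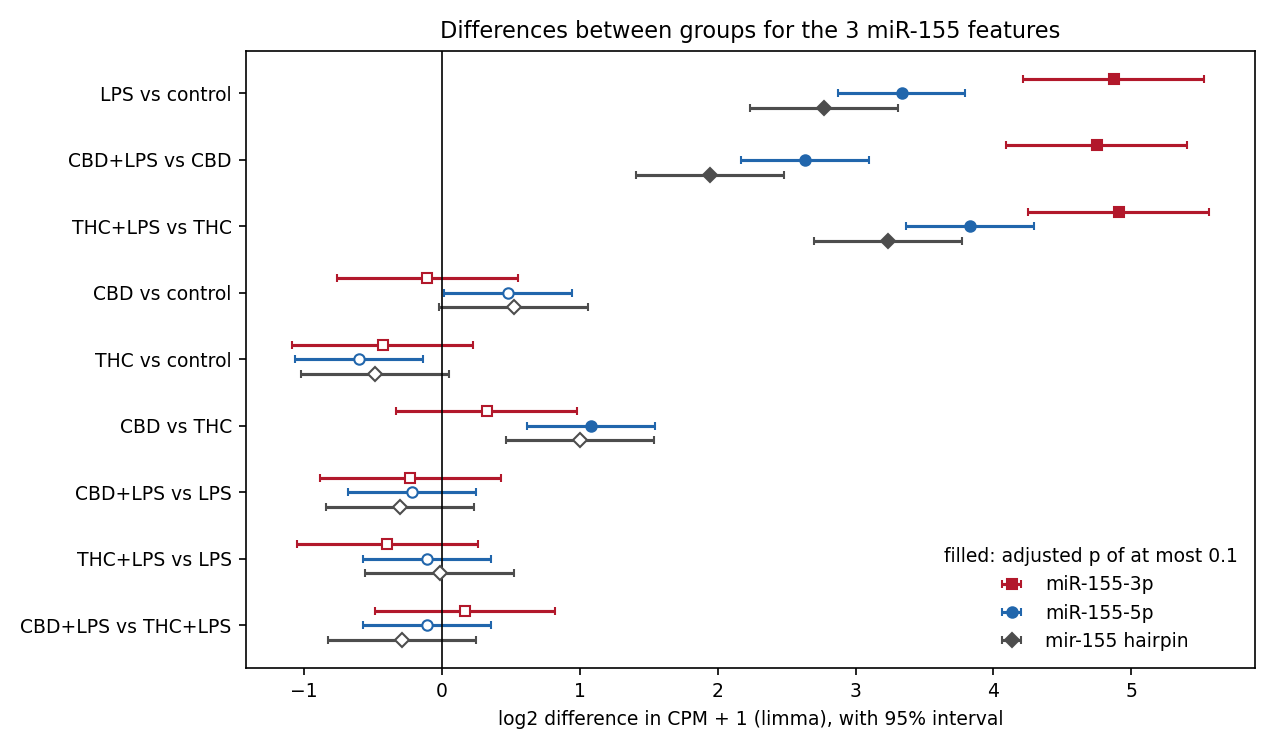
Differences between groups on the log2(CPM + 1) scale from limma for miR-155-3p (squares), miR-155-5p (circles) and the mir-155 hairpin (diamonds), with 95% intervals and filled symbols where the adjusted p was at most 0.1. The 3 comparisons of cells with and without LPS lie between 1.94 and 4.91, and of the other comparisons only miR-155-5p in CBD against THC has a filled symbol, at 1.08.

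The arms did not rise by the same factor. In control samples 22, 28 and 34 there were 65.2, 70 and 46.4 times as many CPM of miR-155-5p as of miR-155-3p, and in LPS samples 23, 29 and 35 there were 15.1, 21.6 and 21.5 times as many. Since both strands come from the same sample, this ratio does not depend on how libraries were scaled. The guide strand remained the more abundant strand in every sample, while its lead over the 3p strand was smaller in every LPS sample than in every control sample. A ratio of 5p to 3p that was lower in every LPS sample than in every control sample was seen in 5.24% of 191 arm pairs, whichever strand was the more abundant.

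With CBD the ratio was 64.9, 138 and 80.9 in samples 24, 30 and 36, where CBD 30 rests on 5 reads of the 3p strand. With THC it was 47.4, 60.4 and 55.1 in samples 25, 31 and 37. With CBD+LPS it was 15.1, 22.2 and 21.6 in samples 26, 32 and 38, and with THC+LPS 28.1, 21.6 and 21.3 in samples 27, 33 and 39. The 9 samples with LPS, at 15.1 to 28.1, did not overlap the 9 without, at 46.4 to 138, a separation in this direction that 2 of 191 arm pairs showed (1.05%).

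**Figure D3:**
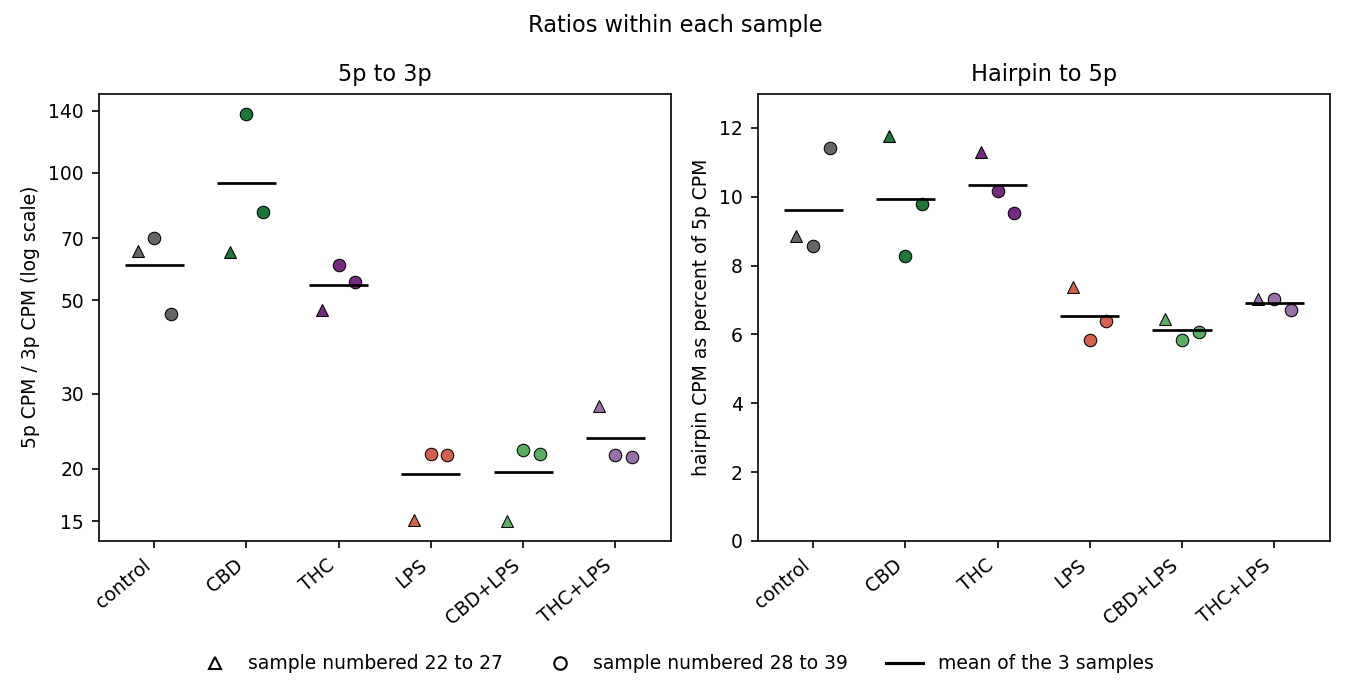
Ratios within each sample, with miR-155-5p CPM over miR-155-3p CPM on a log axis at the left and hairpin CPM as a percentage of miR-155-5p CPM at the right, 1 point per sample, group means as bars, triangles for samples 22 to 27 and circles for samples 28 to 39. The 6 circles with LPS lie between 21.3 and 22.2 at the left, and at the right samples with LPS lie between 5.83% and 7.37% and those without between 8.28% and 11.8%.

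In a limma fit of the log2 ratios of all 191 arm pairs, the ratio of 5p to 3p of miR-155 was lower with LPS than in control by 1.54 on the log2 scale (SE 0.26, adjusted p = 0.00134), a 2.91-fold lower ratio with a 95% interval of 1.997 to 4.23. The pair had the smallest p among the 104 pairs with at least 100 reads in both arms, and 5 of the 191 pairs were called (2.62%). It was lower by 2.11 in CBD+LPS than in CBD (adjusted p = 1.18e-05, 3.66% of pairs called) and by 1.08 in THC+LPS than in THC (adjusted p = 0.0435, 1.05% called). The call in THC cells was lost without any of 4 samples, THC 31 (adjusted p = 0.162), THC 37 (0.171), THC+LPS 33 (0.288) or THC+LPS 39 (0.198). Over the 9 samples with LPS and the 9 without, the mean difference was -1.58, and an exact permutation test of the LPS labels within control, CBD and THC gave p = 0.00025, 2-sided, the smallest that its 8000 permutations can give. Labels were permuted without regard to sample number, so samples that may deviate together were treated as independent. Within samples 28 to 39 the difference was also -1.58, with an exact permutation p of 0.00926, again the smallest possible there. A quasi-binomial model of the arm reads gave the same directions and sizes, but its adjusted p was 0.641 for LPS against control, so that the call in single groups depended on the model, while the pooled effect of LPS was called by it too (-1.63, adjusted p = 0.0425).

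Counted as reads, the 3p strand made up 1.51%, 1.41% and 2.11% of arm reads in control and 6.20%, 4.42% and 4.44% with LPS. The 95% Wilson intervals ran from 0.603% to 3.35% over the control samples and from 3.97% to 6.80% over the LPS samples. Among the samples with LPS, the 6 numbered 28 to 39 were alike across all 3 treatments, with shares between 4.32% and 4.48% and ratios between 21.3 and 22.2. The samples numbered 22 to 27 stood apart from these, with 6.20% (5.64% to 6.80%) in LPS 23, 6.22% (5.65% to 6.85%) in CBD+LPS 26 and 3.44% (2.98% to 3.97%) in THC+LPS 27. The intervals of LPS 23 and CBD+LPS 26 lay above those of all 6, while the interval of THC+LPS 27 overlapped that of CBD+LPS 32 (3.85% to 4.84%), and what set these samples apart was not tested. In resting cells the intervals of all 9 samples overlapped.

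**Figure D4:**
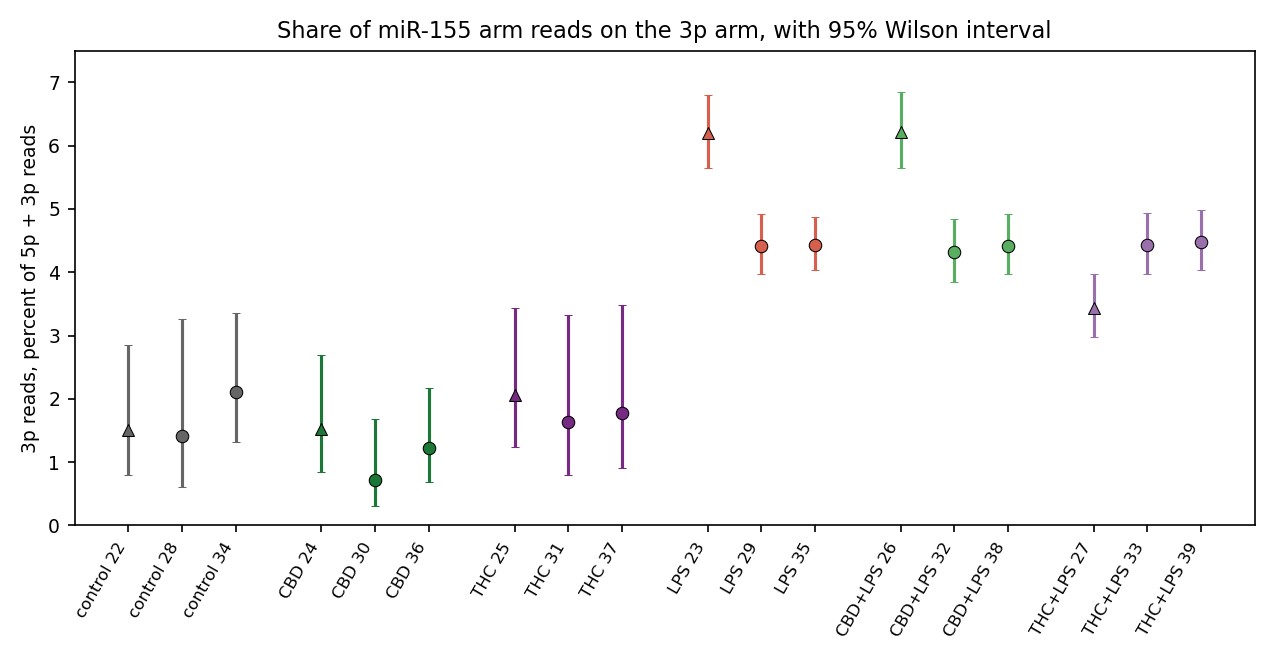
Share of miR-155 arm reads that fell on the 3p strand in each of the 18 samples, as a percentage of 5p and 3p reads together, with the 95% Wilson interval of the count as bars, triangles for samples 22 to 27 and circles for samples 28 to 39. Resting samples lie between 0.722% and 2.11%, and the 6 circles with LPS lie between 4.32% and 4.48% with 1 triangle below and 2 above them.

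The hairpin rose less than either arm. In control samples its level was 8.86%, 8.57% and 11.4% of that of miR-155-5p in CPM, and in LPS samples 7.37%, 5.84% and 6.39%. These percentages compare features of different length. Both arms lie inside the hairpin, yet it had fewer reads than miR-155-5p in every sample (52 against 587 in control 22). Arm reads were therefore not all counted on the hairpin as well. Which reads the hairpin feature holds is not given in the sources used here, so it need not measure the level of the precursor. With CBD the percentages were 11.8%, 8.28% and 9.78% and with THC 11.3%, 10.2% and 9.52%, against 6.44%, 5.83% and 6.08% with CBD+LPS and 7.02%, 7.03% and 6.71% with THC+LPS. The 9 samples with LPS, at 5.83% to 7.37%, all lay below the 9 without, at 8.28% to 11.8%, as did 1 of 214 pairs of a hairpin and its 5p strand (0.467%).

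Of control, CBD and THC cells, the effect of LPS on this ratio passed the test in CBD cells alone, and whether it differed from that in the others is given by the interactions, which did not pass (-0.13 for CBD, limma adjusted p = 0.993, and -0.03 for THC, 0.993). LPS and control differed by -0.57 on the log2 scale (SE 0.17, limma adjusted p = 0.423, 0.467% of pairs called), CBD+LPS and CBD by -0.70 (adjusted p = 0.0488) and THC+LPS and THC by -0.59 (adjusted p = 0.191), with 1.4% of 214 pairs called in CBD cells. The call in CBD cells was lost without any of 5 samples, CBD 24 (adjusted p = 0.157), CBD 36 (0.185), CBD+LPS 26 (0.139), CBD+LPS 32 (0.209) or CBD+LPS 38 (0.162). Pooled over the 3 pairs of groups it was -0.62 (SE 0.10, limma adjusted p = 0.000475, 3.27% of pairs called), and the exact permutation p was again 0.00025. The 3p strand also rose relative to the hairpin, and by more than the 5p strand did. Its CPM were 0.167 to 0.189 of those of the hairpin in control and 0.727 to 0.896 with LPS, and the ratio of hairpin to 3p was lower with LPS by 2.11 on the log2 scale (SE 0.22, adjusted p = 1.39e-06, 0.84% of 238 pairs called). In CBD+LPS 26 the 3p strand exceeded the hairpin, at 1.03 times its CPM.

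Without LPS the cannabinoids were followed by small differences from control. CBD exceeded control by 0.48 for miR-155-5p (limma adjusted p = 0.525, 95% interval 0.01 to 0.94) and 0.52 for the hairpin (adjusted p = 0.568), while miR-155-3p differed by -0.11 (adjusted p = 0.991). THC differed from control by -0.60 for the 5p strand (95% interval -1.07 to -0.14), -0.48 for the hairpin and -0.43 for the 3p strand, each with an adjusted p of 0.977. None of these passed the test, in comparisons where 0.514% of features were called for CBD and 0% for THC, where 46 features had an unadjusted p of at most 0.05 in limma and edgeR and DESeq2 also called 0. Within samples 28 to 39, where the CBD samples are the pair with few reads on the 3 hairpins named above, CBD exceeded control by 0.86 for miR-155-5p (adjusted p = 0.001003) and 0.72 for the hairpin (adjusted p = 0.0663). There 258 of the 1363 features (18.9%) were called between CBD and control, and the part of the difference in those 3 hairpins in this result was not tested.

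In LPS-treated cells no difference of the miR-155 features between either cannabinoid and LPS alone passed the test. CBD+LPS differed from LPS by -0.22 for miR-155-5p (95% interval -0.68 to 0.25), -0.23 for miR-155-3p (-0.88 to 0.43) and -0.31 for the hairpin (-0.84 to 0.23), each with a limma adjusted p of 1. THC+LPS differed from LPS by -0.11 for miR-155-5p (-0.57 to 0.36), -0.40 for miR-155-3p (-1.05 to 0.26) and -0.02 for the hairpin (-0.55 to 0.52), also with an adjusted p of 1. In both comparisons limma called 0% of features, with 44 and 32 at an unadjusted p of at most 0.05, edgeR called 0 in each, and DESeq2 called 1 and 0. For miR-155-5p the interval with CBD runs from 0.623-fold to 1.19-fold of the LPS level and that with THC from 0.673-fold to 1.28-fold. The 5p strand in CBD+LPS 26, at 6580.4 CPM, was the lowest of all LPS-treated samples, and CBD+LPS samples 32 and 38 overlapped the LPS group. The ratio of 5p to 3p differed from LPS by 0.01 in CBD+LPS (-0.53 to 0.55) and by 0.29 in THC+LPS (-0.25 to 0.83), with adjusted p of 0.990 and 0.993.

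The effect of LPS was smaller in CBD cells than in control cells by 0.70 for miR-155-5p (interaction -0.70, SE 0.31, unadjusted p = 0.0388 and adjusted p = 0.909 in limma) and by 0.83 for the hairpin (-0.83, SE 0.36, unadjusted p = 0.0347 and adjusted p = 0.909), neither of which passed. For miR-155-3p the interaction was -0.12 (SE 0.44). Within samples 28 to 39 the interaction for miR-155-5p was -1.03 (limma adjusted p = 0.00762), in a subset where 134 of 1363 features (9.83%) were called for it. The CBD samples there are CBD 30 and CBD 36 alone, with 0.160% and 0.151% of reads on mir-6243, mir-6240 and mir-6236, and the part of this in the interaction was not tested. With THC the interactions were 0.50, 0.47 and 0.03 for the 5p strand, hairpin and 3p strand, with adjusted p of 0.935, 0.935 and 0.996. Limma, edgeR and DESeq2 called 0% of features for either interaction, and in limma 65 features for CBD and 51 for THC had an unadjusted p up to 0.05.

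CBD and THC are isomers, and THC has a closed pyran ring where CBD has a free phenol hydroxyl. They form 1 pair of compounds, compared at 10 μM and 6 h in 2 settings, resting and LPS-treated cells, with p-values adjusted over all features tested. In resting cells miR-155-5p was at 1024 to 1407 CPM with CBD and at 499 to 659 CPM with THC, without overlap. The hairpin was at 120.5, 107 and 138 CPM with CBD against 74.6, 50.8 and 56.7 CPM with THC, also without overlap. The 3p strand was at 15.8, 9.39 and 17.4 CPM with CBD and 13.9, 8.26 and 10.8 CPM with THC, and these values overlapped.

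The difference of CBD over THC was 1.08 for miR-155-5p (SE 0.22, 95% interval 0.62 to 1.55, limma adjusted p = 0.0355), or 2.12-fold, among 7 features called (0.514%). It was 1.003 for the hairpin (SE 0.25, 0.47 to 1.54, adjusted p = 0.120) and 0.32 for the 3p strand (SE 0.31, -0.33 to 0.98, adjusted p = 0.691). Groups without overlap in this direction were seen for 10.1% of all features, so the separation alone was not unusual. The call for miR-155-5p was lost with scaling by library size alone (1.02, adjusted p = 0.126) and with scaling by miR-191-5p and miR-103-3p as reference (0.72, adjusted p = 0.141). The reference was the summed reads of both, which were mostly those of miR-191-5p (880385 against 86954 reads). With CBD and THC, miR-191-5p averaged 67725 and 51919 CPM and miR-103-3p 6715 and 6040 CPM, and the part of this in the lost call was not tested. The call was also lost without any of CBD 30 (adjusted p = 0.165), CBD 36 (0.236), THC 31 (0.204) or THC 37 (0.143). Within samples 28 to 39 the difference was 1.304 (adjusted p = 1.68e-05), in a subset where 19.6% of features were called. CBD 30 and CBD 36 are the samples with few reads on mir-6243, mir-6240 and mir-6236 (0.160% and 0.151%, against 1.67% in CBD 24 and 1.80% to 4.55% in the THC samples), and the part of this in the difference was not tested.

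In LPS-treated cells the compounds were not separated. CBD+LPS differed from THC+LPS by -0.11 for miR-155-5p (95% interval -0.58 to 0.35), 0.17 for miR-155-3p (-0.49 to 0.82) and -0.29 for the hairpin (-0.83 to 0.25), each with a limma adjusted p of 1. Here limma, edgeR and DESeq2 each called 0% of features, with 36 at an unadjusted p of at most 0.05 in limma. The interval for miR-155-5p runs between 0.671-fold and 1.28-fold. The ratio of 5p to 3p differed between CBD and THC by 0.76 in resting cells (0.21 to 1.298, adjusted p = 0.231) and by -0.28 with LPS (-0.82 to 0.26, adjusted p = 0.993).

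Of 24 other mature miRNAs linked in the literature to Toll-like receptor 4 and NF-κB signaling, all 24 were tested and 3 rose with LPS against control at an adjusted p of at most 0.1, none fell, beside 14 of all 1363 features called (1.03%) and 13 higher (0.954%). The median difference of the list was 0.32 against 0.11 over all features. miR-21a-3p rose by 1.73 (SE 0.22, limma adjusted p = 0.000111), from 358 ± 42.0 to 1186 ± 79.7 CPM (SD, n = 3), and its guide miR-21a-5p, a miRNA known for lowering Pdcd4, rose by 1.08 (SE 0.19, adjusted p = 0.00656), from 20179 ± 1407 to 42481 ± 1715 CPM. miR-146a-3p, the passenger strand of a miRNA known for restraining Irak1 and Traf6, rose by 2.28 (SE 0.46, adjusted p = 0.0200), from 6.67 ± 1.93 to 35.9 ± 7.84 CPM. Its control level was close to the 3-read floor. The guide strand miR-146a-5p was at 5931 ± 1180 and 10986 ± 934 CPM, differed by 0.91 (limma adjusted p = 0.291) and was not called. miR-221-3p, the most abundant of the rest by reads, was at 8058 ± 1926 and 14410.0 ± 4069 CPM and differed by 0.82 (adjusted p = 0.784). In each of the 3 that rose the fold was below those of both miR-155 strands. Pooled over control, CBD and THC, 5 of the 24 rose and 0 fell, beside 22 of all features called (1.61%), of which 19 rose (1.39%). Called members that fell appeared under other settings, with 5 higher and 2 lower when scaled by reference miRNAs (3.23% of all features called), 5 and 1 with a covariate for samples 22 to 27 (2.42%) and 8 and 3 within samples 28 to 39 (9.68%).

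Among the 658 features with 100 reads or more in total, the 6 group means of miR-146a-3p on the log2 scale, centred on their own mean, were closest to those of miR-155-5p, with a root mean square difference of 0.73. It was followed by miR-21a-3p (0.89), the hairpins mir-21a (0.93) and mir-20a (1.04) and miR-221-5p (1.08), against a median of 1.68 over these features. By the same measure the mir-155 hairpin itself was at 0.32, and miR-155-3p, at 0.83, lay farther away than miR-146a-3p. However, miR-146a-3p had only 230 reads in total. Its mean level was 6.67 CPM in control, 4.17 CPM with CBD and 5.93 CPM with THC, near the 3-read floor. The measure also depends on the size of the LPS response. Against control that response was 3.33 in the 5p strand of miR-155, 4.87 in its 3p strand and 2.28 in miR-146a-3p. How far read depth and response size set this order was not tested. All these distances are between 6 means from the same 18 libraries and carry no test.

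The 5 other arm pairs with the smallest p moved with LPS by less than miR-155, and differences between pairs were not tested. With at least 100 reads in both arms, the ratio of 5p to 3p was lower with LPS than in control by 1.39 on the log2 scale for miR-25 (limma adjusted p = 0.00863), by 1.05 for miR-20a (0.00786) and by 0.66 for miR-21a (0.0305). It was higher by 0.62 for miR-222 (0.0809), and for miR-30b it differed by 0.71 (0.169). In miR-25 and miR-222 the 3p strand is the more abundant one, with mean log2 ratios of -5.71 and -2.60 in control. The ratio therefore fell away from balance in miR-25 and moved towards it in miR-155, miR-20a, miR-21a and miR-222. In miR-30b, which was not called, it moved away from balance, with mean log2 ratios of 4.65 in control and 5.36 with LPS.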

How the data were processed

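Small RNA of BV-2 cells was sequenced in 18 samples, grouped by the treatment in their labels. Per the study's methods, the authors prepared libraries with a small RNA kit, pooled them for sequencing, aligned reads with BWA to the mouse sequences of miRBase (up to 10 mappings for a read), counted them per miRNA and normalized in edgeR. The authors deposited 1 table per sample of CPM, scaled by library size and TMM factors. In 11 samples TMM scaling takes the sum above what plain CPM can reach, and the deposited values there were recorded as a score; all 18 hold the same quantity. Whole reads were recovered for 100% of values (tolerance 0.001 of a read), and TMM factors computed from them returned the deposited values within a relative deviation of 4.86e-10. How reads with several mappings were counted and the miRBase version of the alignment are not given in the sources used here.

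The 1363 features with 10 or more reads in total were tested, 2-sided, on log2(CPM + 1) in R 4.3.3 by limma 3.58.1 (trended prior variance), with all 6 groups in 1 model. Calls were made at a Benjamini-Hochberg adjusted p of at most 0.1 over all features. The pseudocount makes fold changes of features with few reads too small. Log2 ratios were fitted likewise over 191, 214 and 238 pairs, with the trend on the mean level of the weaker feature. Alternatives were other scalings, filters, pseudocounts and thresholds, edgeR 4.0.16, DESeq2 1.42.0, a quasi-binomial model, a covariate for samples 22 to 27, samples 28 to 39 alone, leaving out each sample and, added after seeing the data, a block of 3 sets of sample numbers. Scripts were tested on simulated data.

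Named features were the 3 members, those of the list of 24 that passed for LPS against control with the most abundant others up to 4, the 5 features most alike miR-155-5p, the 5 other arm pairs with the smallest p, and the study's reference miRNAs. miR-146a-5p was named in addition, as the guide of a called strand. The members and lists were chosen with earlier results of these data known. Depths and floors are given with the results.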

Additional observations from a re-analysis of the deposited data

How the results depend on the processing

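Of 939 values recomputed under alternatives for 91 results, 885 kept their direction and side of the threshold (counts: stayed within 1.5 times), 24 newly passed, 10 no longer passed, 18 changed sign and 2 counts moved. Leaving out 1 sample at a time gave 1638 values, of which 1574 kept both, 28 no longer passed, 9 newly passed and 27 changed sign. The rise of all 3 miR-155 features with LPS kept its call under every alternative. The causes of the changes below were not tested, apart from stricter filters testing fewer features.

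For levels on the log2 scale, CBD against THC gave 1.02 for miR-155-5p with library size alone and 0.72 with reference miRNAs, neither called. The hairpin passed there with DESeq2 (0.93), filterByExpr and the covariate for samples 22 to 27 (1.003 each), the unadjusted threshold (1.003) and samples 28 to 39 (1.16), and miR-155-3p was -0.0053 with reference miRNAs. In samples 28 to 39 CBD against control passed for the hairpin (0.72) and miR-155-5p (0.86), as did the CBD interaction for miR-155-5p (-1.03). Signs turned for the hairpin in THC+LPS against LPS (0.00018 with RLE, 0.0011 with DESeq2), for miR-155-5p in CBD+LPS against THC+LPS (0.034 with reference miRNAs, 0.053 in samples 28 to 39) and for miR-155-3p in the CBD interaction (0.043 with RLE, 0.12 with reference miRNAs, 0.10 with DESeq2) and the THC interaction (-0.20 with reference miRNAs). Reference miRNAs moved the median of all features by up to -0.41 (THC+LPS against THC) and by -0.29 for CBD against THC. For LPS against control the count of the Toll-like receptor list was 5 with the covariate, where 1.61% of all features were called, and 5 in samples 28 to 39, where 3.45% were.

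For ratios, the quasi-binomial model did not call 5p to 3p in LPS (-1.53), CBD+LPS (-1.54) or THC+LPS (-1.28) against control, CBD+LPS against CBD (-2.14) or THC+LPS against THC (-1.20), hairpin to 5p in CBD+LPS against control (-0.71), or hairpin to 3p in THC+LPS against control (-1.81) or THC (-1.80). It turned signs in hairpin to 5p for CBD against control (-0.0025) and the THC interaction (0.017) and in 5p to 3p for CBD+LPS against LPS (-0.0055). With 100 reads in both features, hairpin to 5p passed for LPS against control (-0.57) and THC+LPS against THC (-0.59), and hairpin to 3p for CBD against control (0.63) and THC (0.68). THC+LPS against THC passed for hairpin to 5p also with the covariate (-0.59) and the unadjusted threshold (-0.59), and CBD against THC for hairpin to 3p with the covariate (0.68) and a pseudocount of 2 (0.69). In samples 28 to 39, calls were gained for hairpin to 5p in LPS against control (-0.71), 5p to 3p in CBD against control (0.89) and THC (0.90), and hairpin to 3p in CBD against control (0.75) and THC (0.76). Signs turned there in hairpin to 5p for CBD (-0.14) and THC (-0.0019) against control and the CBD (0.11) and THC (0.17) interactions, and in 5p to 3p for THC+LPS against LPS (-0.010) and CBD+LPS against THC+LPS (0.031).

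Leaving out single samples changed a sign or call in these ranges. For levels, CBD against THC ran from 0.97 to 1.21 for miR-155-5p and 0.89 to 1.16 for the hairpin, the hairpin in THC+LPS against LPS from -0.084 to 0.027, and miR-155-3p from -0.47 to 0.15 in CBD against control, -0.38 to 0.24 in the CBD interaction and -0.16 to 0.40 in the THC interaction. The ratio of 5p to 3p ran from 0.47 to 0.98 in CBD against THC, -0.16 to 0.19 in CBD+LPS against LPS, -1.21 to -1.01 in THC+LPS against THC and -1.42 to -1.16 in THC+LPS against control. Hairpin to 3p ran from 0.51 to 0.77 in CBD against THC and -0.16 to 0.063 in CBD+LPS against LPS. Hairpin to 5p ran from -0.21 to 0.045 in CBD against THC, -0.089 to 0.17 in CBD against control, -0.82 to -0.57 in CBD+LPS against CBD, -0.17 to 0.00080 in CBD+LPS against LPS, -0.73 to -0.53 in CBD+LPS against control (call lost in 14 of 18) and -0.16 to 0.061 in the THC interaction.

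Each sample number occurs once, but 22 to 27, 28 to 33 and 34 to 39 each hold 1 sample of every group, and a replicate block of these 3 sets was fitted, a choice made after seeing the data, since no label names the sets. Deviations from the group means correlated above 0.1 in 30 of 45 pairs within a set and in 31 of 90 between sets (645 features). The median correlation was 0.197 within a set and -0.099 between sets, and 10 of 18 samples correlated best with their own set. Correlations within a set ranged from -0.62 to 0.81. Deviations within a group cancel out, so the negative median between sets is not separate from the positive one within. By these values, which carry no test, samples of a set tended to deviate together. The main results were fitted without the block, and results with it are given beside them. The exact permutation tests did not use these sets either. With the replicate block, calls were gained for the hairpin in CBD against THC (1.003), hairpin to 5p in THC+LPS against THC (-0.59) and hairpin to 3p in CBD against THC (0.68), and no other call on the miR-155 features or ratios changed. Features called in all went from 14 to 17 for LPS against control and from 7 to 44 for CBD against THC. Depth limits the 3p strand most, with 5 to 17 reads in each resting sample.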
